A study of Mus musculus with 7 samples.

Results

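The matrix metalloproteinase (MMP), tissue inhibitor of metalloproteinases (TIMP) and ADAMTS genes were followed in tumors grown from mouse embryonic fibroblasts (MEFs) that lack nuclear myosin 1 (NM1). Members were taken by name, as the protein-coding Ensembl genes whose GENCODE M21 symbol is Mmp, Timp or Adamts followed by a number, and 45 of the 46603 genes in the count table qualified. They comprised 22 MMP, 4 TIMP and 19 ADAMTS genes. Mmp1a carries a pseudogene label in that annotation and was not a member.

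The KO tumor grew from a MEF line in which NM1 had been deleted with CRISPR/Cas9. The KO + NM1 tumor grew from the same KO cells after a lentiviral vector had returned NM1 with HA and V5 tags, with neomycin selection and single clones. All cells were injected into female Balb/c nude mice that were 16 weeks old, which lack T cells but keep other host cells, and the labels give 30 days of follow-up. The authors' methods give a shorter follow-up than the labels. They place the injection under the skin of the right flank, and the authors' results text places it in the mammary pads. The labels describe a single tumor of each kind cut into 4 pieces, of which 3 KO and 4 KO + NM1 pieces were sequenced, so the replicates are pieces and every SD and p-value covers the spread between pieces rather than between mice. Reads of host and injected cells, both mouse, cannot be told apart. In such bulk samples fewer cells of a type and less RNA per cell cannot be told apart either.

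MMPs are zinc-dependent enzymes that cut collagens, basement membrane and many other proteins outside the cell, and most are made as inactive precursors. TIMPs bind the active site of MMPs and block it, and Timp3 also blocks several ADAM and ADAMTS enzymes. ADAMTS proteins are secreted relatives of the ADAM proteases that trim procollagens, cut large proteoglycans such as aggrecan and versican, or help to build microfibrils. Fibroblasts, macrophages and endothelial cells of a tumor all make members of these families.

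The depth of the pieces was 24088309 to 28326568 counted reads, and 3 counts, the limit that a count of 0 allows, equalled 0.0991 to 0.148 CPM (counts scaled to the library size after TMM normalization). Mitochondrially encoded genes took 1.81% to 2.14% of the counts in KO pieces and 5.11% to 18.5% in KO + NM1 pieces. Across genes, log2 CPM of KO + NM1 piece 01 correlated with the other KO + NM1 pieces at 0.855 to 0.861, whereas those 3 correlated with each other at 0.977 to 0.986. Where leaving out piece 01 changed a call or a sign, the value without it is given. Myo1c, the gene that encodes NM1, had 289 to 313 CPM in KO pieces and 382 to 438 CPM in KO + NM1 pieces, and its fitted log2 difference was -0.43 (SE, standard error, 0.13, adjusted p = 0.031), and gene counts do not separate its isoforms. All 10 fibroblast markers passed the filter on low counts, with summed levels of 7935 to 12287 CPM in KO and 3174 to 9761 CPM in KO + NM1 pieces.

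Of the 45 genes, 37 passed the filter on low counts and were tested with the 16887 genes of the whole table. A gene was called at a Benjamini-Hochberg adjusted p under 0.05 from edgeR's quasi-likelihood test and a change of at least 2-fold. Under this rule 7 members were higher in KO pieces, namely Timp1, Mmp9, Mmp13, Adamts4, Adamts6, Adamts7 and Adamts14, or 18.9% of those tested against 17.1% of all genes. A further 11 were lower, namely Timp4, Mmp15, Mmp17, Mmp23, Mmp27, Mmp28, Adamts5, Adamts10, Adamts15, Adamts17 and Adamts18, or 29.7% against 20.3% of all genes. In either direction 48.6% of the tested members were called, beside 37.3% of all genes. The median log2 fold change, KO minus KO + NM1, was -0.25 over the tested members and -0.00172 over all genes tested. Members lay on both sides of zero in each family, with 2 MMP, 1 TIMP and 4 ADAMTS genes higher and 5 MMP, 1 TIMP and 5 ADAMTS genes lower. The other 19 tested members were not called. By the adjusted p alone the same 7 and 11 members passed, beside 25.7% and 24.5% of all genes.

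**Figure D1:**
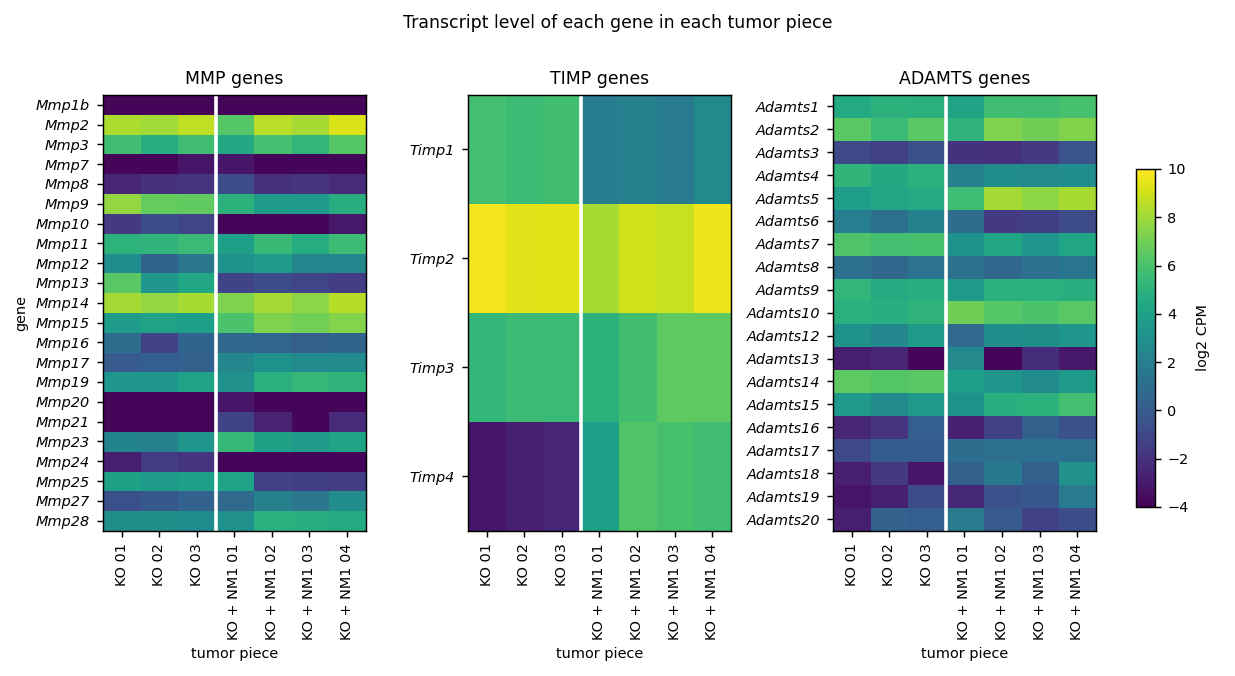
Heat maps of log2 CPM of every member (rows) in each tumor piece (columns), with a white line after the third KO piece and a shared color scale from -4 to 10. Timp1, Mmp9, Mmp13 and Adamts14 are brighter in KO pieces and Timp4, Mmp15 and Adamts5 in KO + NM1 pieces, while Timp2, Mmp2 and Mmp14 are bright in both.

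In 7 of the 37 tested members, the 7 called higher, the lowest KO piece lay above the highest KO + NM1 piece, beside 30.5% of all genes. The reverse held for 10 of the 37, all of them called lower, beside 26.4% of all genes. In either direction it was 17 of the 37, a smaller share than the 57% of all genes. Of the 11 members called lower, Adamts15 was the exception. Of these 17 members, 12 had a two-sided exact permutation p on means of 0.0286, the smallest that 3 against 4 pieces allow, and Adamts5, Adamts6, Mmp23, Mmp27 and Mmp28 had an exact permutation p of 0.0571. A member such as Timp4 or Adamts18, with almost no reads in KO pieces, passed the filter only through its level in KO + NM1 pieces, so the shares among tested members describe these genes and no more.

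**Figure D2:**
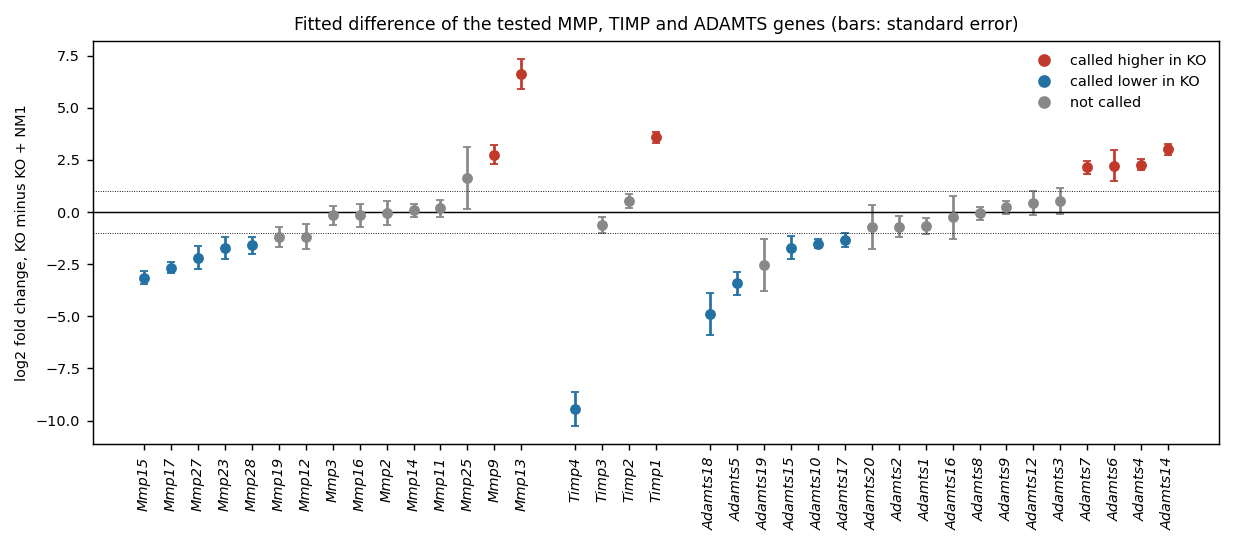
Fitted log2 fold change, KO minus KO + NM1, of the 37 tested members, ordered within each family, with bars for the standard error and dotted lines at a 2-fold change. Mmp13 stands highest at 6.61 and Timp4 lowest at -9.45.

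Of the TIMP genes, 1 was higher and 1 was lower in KO pieces. Timp1, a secreted inhibitor of most MMPs that also acts as a growth factor for several cell types, was 12.0-fold higher in KO pieces by the ratio of means, Timp4 was almost absent from them, and Timp2 and Timp3 were not called. Timp1 (ENSMUSG00000001131; GRCm38 chromosome X from 20870166 to 20874735) had 57.3, 48.6 and 55.2 CPM in KO pieces 01 to 03 and 3.65, 4.23, 3.46 and 6.54 CPM in KO + NM1 pieces 01 to 04. The lowest KO piece lay far above the highest KO + NM1 piece. This gave a log2 fold change of 3.58 (SE 0.25, adjusted p = 0.000261).

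Timp4 (ENSMUSG00000030317; chromosome 6 from 115241892 to 115252205), the inhibitor known for its expression in heart, fat and other restricted tissues, had 1, 2 and 3 reads in the KO pieces. In KO + NM1 pieces it had 411, 1799, 1227 and 1285 reads, or 15.0, 73.2, 60.6 and 52.8 CPM. Piece 01 was the lowest of the KO + NM1 pieces and still far above every KO piece. The summed counts gave a level 726-fold higher in KO + NM1 pieces, with a 95% counting interval of 333 to 1979, and edgeR's fitted log2 fold change of -9.45 (SE 0.80, adjusted p = 0.000403) depends on its prior count. White adipocyte markers moved the same way. All 10 were called lower in KO, their sum was 200 to 416 CPM in KO and 5441 to 39525 CPM in KO + NM1 pieces, none lacked reads except Lep in KO piece 01, and piece 01 had the lowest sum of the KO + NM1 pieces. The part of these cells in the Timp4 result was not tested.

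Timp2 (chromosome 11), which at the cell surface also takes part in the activation of pro-Mmp2 by Mmp14, was the highest TIMP per length in both tumors. It had 872, 660 and 690 CPM in KO pieces and 282, 525, 453 and 800 CPM in KO + NM1 pieces. The groups overlapped because KO + NM1 piece 04 lay above KO pieces 02 and 03. For Timp2 the log2 fold change was 0.52 (SE 0.35, adjusted p = 0.242), with a 95% interval from -0.29 to 1.34 that reaches past a 2-fold rise.

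Timp3 (chromosome 10), the inhibitor that stays bound to the matrix, had 38.3, 48.0 and 46.2 CPM in KO pieces and 31.4, 53.9, 92.4 and 93.2 CPM in KO + NM1 pieces. KO + NM1 piece 01 lay below all KO pieces and the other three above them. The log2 fold change was -0.62 (SE 0.37, adjusted p = 0.214), with a 95% interval from -1.50 to 0.26. Without piece 01 it was -0.98 with an adjusted p of 0.00607, just under a 2-fold change. Exons of Timp3 share 1733 bases with Syn3 on the opposite strand, and Syn3 had at most 0.732 CPM in any piece. Timp4 shares 90 exon bases with Syn2, which had 0.0333 to 0.793 CPM in KO and 1.09 to 5.51 CPM in KO + NM1 pieces. The strand setting of the counting is not given in the sources used here.

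**Figure D3:**
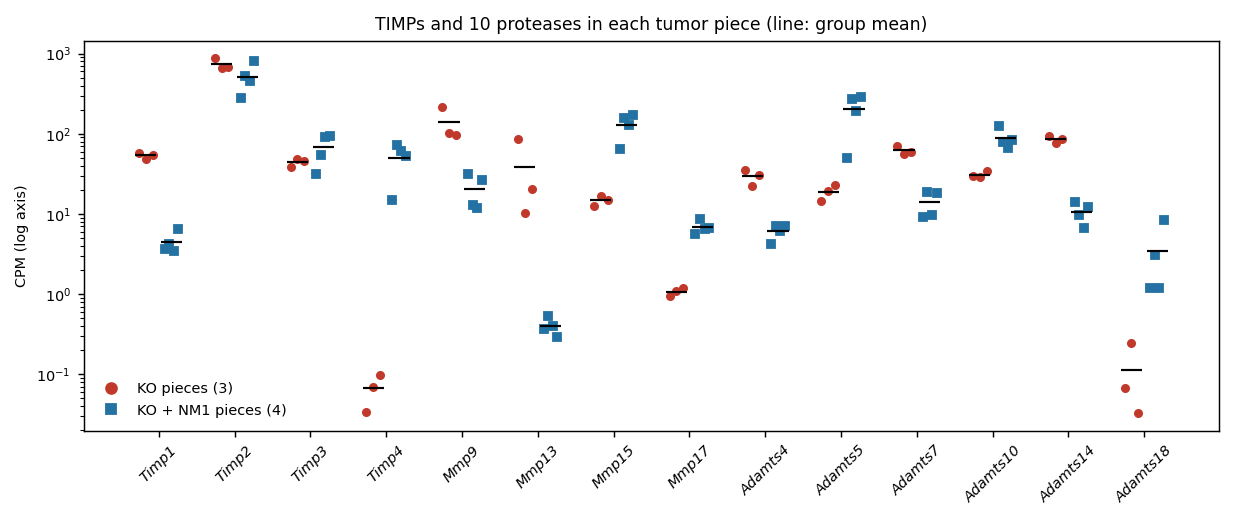
Level of the 4 TIMP genes and 10 called proteases in each tumor piece, in CPM on a log axis, with circles for the 3 KO pieces, squares for the 4 KO + NM1 pieces and lines for group means. For Timp4 all KO pieces lie below 0.1 CPM and all KO + NM1 pieces above 10 CPM, while Timp2 and Timp3 overlap.

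The gelatinases cut denatured collagen and the collagen IV of basement membranes. Mmp9 (ENSMUSG00000017737; chromosome 2 from 164940780 to 164955850), the form that leukocytes and macrophages also make, was higher in KO pieces. It had 216, 102 and 97.5 CPM in KO pieces and 31.7, 12.9, 11.8 and 26.5 CPM in KO + NM1 pieces. The KO pieces all lay above the KO + NM1 pieces, and KO piece 01 was the highest. edgeR gave a log2 fold change of 2.74 (SE 0.45, adjusted p = 0.00311).

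Mmp2, the gelatinase typical of fibroblasts, was the highest MMP per length in both tumors and was not called. It had 311, 268 and 399 CPM in KO pieces and 78.6, 376, 286 and 598 CPM in KO + NM1 pieces. KO + NM1 pieces spanned the whole range of the KO pieces, with piece 01 lowest and piece 04 highest. Its log2 fold change was -0.04 (SE 0.58, adjusted p = 0.964), and its 95% interval from -1.41 to 1.33 does not exclude a change of more than 2-fold in either direction. Without piece 01 it was -0.49.

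Most macrophage markers were higher in KO, as Mmp9 was. Of 10, 8 were called higher in KO and none lower, and no marker was at 0. Their sum was 3738, 3867 and 4277 CPM in KO pieces 01 to 03, lowest in the KO piece with the most Mmp9. In KO + NM1 pieces it was 683 to 2559 CPM. The highest of these was piece 01, where Lyz2, which was not called, had 1898 CPM. Of 10 neutrophil markers, 6 were tested, of which 1, Csf3r, was higher and 2, Ltf and Elane, were lower in KO. In KO pieces Csf3r had 26.1 to 31.01 CPM, S100a8 and S100a9 had 0.233 to 2.36 CPM, Cxcr2 had at most 0.834 CPM, and Ngp and Ly6g had no reads. The part of either cell type in the Mmp9 difference was not tested.

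The collagenases open the triple helix of fibrillar collagens. Mmp13 (ENSMUSG00000050578; chromosome 9 from 7272514 to 7283331), the main collagenase of rodents and a product of osteoblasts, chondrocytes and activated stromal cells, showed the largest fitted rise of the 37 tested members. It had 86.0, 10.3 and 20.5 CPM in KO pieces, against 0.365, 0.529, 0.395 and 0.288 CPM in KO + NM1 pieces, where it had 7 to 13 reads. KO piece 01 held most of the signal, yet the lowest KO piece still lay well above all KO + NM1 pieces. This gave a log2 fold change of 6.61 (SE 0.73, adjusted p = 0.0011), and without KO piece 01 it was 5.16.

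KO piece 01 was also the highest KO piece for all 6 osteoclast markers. Acp5, for example, had 165 CPM there and 44.7 and 47.7 CPM in KO pieces 02 and 03, and the list summed to 385, 108 and 151 CPM in the 3 KO pieces and to 139 to 457 CPM in KO + NM1 pieces. Of these markers 1 was called higher in KO and none lower. Of 10 chondrocyte and osteoblast markers, 5 were tested, of which Runx2 was called higher and Col9a1 and Alpl lower in KO. Sox9 had 87.4, 59.02 and 41.8 CPM in KO and 13.02 to 92.4 CPM in KO + NM1 pieces, also highest of the KO pieces in piece 01, and Ibsp had no reads in any piece. Their part in the level of Mmp13 was not tested.

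The other collagenases had few reads or none. Mmp8, the neutrophil collagenase, had 3, 5 and 6 reads in KO pieces and 15, 4, 4 and 3 reads in KO + NM1 pieces, with piece 01 highest, and did not pass the filter. Mmp1b had no reads in any piece.

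Stromelysins, matrilysin and macrophage elastase cut a wide range of matrix proteins and were not called in either direction. Mmp3 had 25.0 to 53.0 CPM in KO and 21.5 to 77.6 CPM in KO + NM1 pieces, with a log2 fold change of -0.16 (SE 0.46, adjusted p = 0.790). Mmp11, a stromal product of many carcinomas, had 33.0 to 46.0 and 14.9 to 49.2 CPM, with a log2 fold change of 0.17 (adjusted p = 0.749) that was -0.20 without KO + NM1 piece 01. It shares 155 exon bases with Chchd10 on the opposite strand.

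Mmp12, the macrophage elastase, had 6.80, 1.29 and 2.81 CPM in KO pieces and 5.14 to 13.2 CPM in KO + NM1 pieces. KO piece 01 alone overlapped the KO + NM1 pieces. For Mmp12 the log2 fold change was -1.19 (SE 0.60, adjusted p = 0.151), and without KO piece 01 it was -2.12 with an adjusted p of 0.0363.

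Mmp10 did not pass the filter, with 7, 16 and 12 reads in KO pieces and 0, 0, 0 and 1 in KO + NM1 pieces. The ratio of its summed levels was 37.9, with a 95% counting interval of 6.38 to 1541. When every gene with at least 1 count was fitted, it was called higher in KO, with a log2 fold change of 4.64 (SE 1.36, adjusted p = 0.0112). Mmp7, the matrilysin of glandular epithelium, had at most 1 read in any piece.

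Membrane-type MMPs act at the cell surface. Mmp14, the main activator of pro-Mmp2, was the second MMP per length in both tumors and was not called, whereas its relative Mmp15 and the lipid-anchored Mmp17 were lower in KO pieces. Mmp14 had 279, 214 and 284 CPM in KO pieces and 154, 278, 189 and 356 CPM in KO + NM1 pieces. The groups overlapped throughout. For Mmp14 the log2 fold change was 0.08 (SE 0.31, adjusted p = 0.839), with a 95% interval from -0.64 to 0.80 that lies within a 2-fold change, and its sign turned under other scalings, to -0.0209 with DESeq2 size factors for example, and it was -0.21 without KO + NM1 piece 01.

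Mmp15 (ENSMUSG00000031790; chromosome 8 from 95352268 to 95375080) had 12.7, 16.8 and 14.9 CPM in KO pieces and 65.4, 157, 129 and 171 CPM in KO + NM1 pieces. The groups were well apart, with KO + NM1 piece 01 nearest to the KO pieces. The log2 fold change was -3.14 (SE 0.32, adjusted p = 0.000871). Mmp17 (chromosome 5) had 0.933, 1.08 and 1.19 CPM in KO pieces and 5.54, 8.67, 6.42 and 6.74 CPM in KO + NM1 pieces. Pieces of each tumor lay close together, and the log2 fold change was -2.68 (SE 0.26, adjusted p = 0.00069).

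Markers of several cell types that can carry membrane-type MMPs moved in the direction of Mmp15. All 10 endothelial markers were called lower in KO, with sums of 249 to 288 CPM in KO and 1280 to 1806 CPM in KO + NM1 pieces. Of 10 mammary epithelium markers, 7 were lower and none higher, with sums of 4.57 to 69.1 and 681 to 3973 CPM, and Wap was near absent from both tumors. The part of these cells in the differences was not tested.

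Mmp25, a membrane-anchored MMP of leukocytes, followed a single piece. It had 15.5, 12.0 and 15.0 CPM in KO pieces and 17.2, 0.325, 0.296 and 0.288 CPM in KO + NM1 pieces. KO + NM1 piece 01 resembled the KO pieces, and the other three lay far below. With all pieces the log2 fold change was 1.64 (SE 1.48, adjusted p = 0.388), and without piece 01 it was 5.40 with an adjusted p of 6.24e-06. Markers of B and plasma cells summed to 5757 CPM in KO + NM1 piece 01, to 4.69 to 21.5 CPM in its other pieces and to 10.8 to 51.5 CPM in KO pieces, with none of the 10 called. Of the neutrophil markers, Cxcr2 was at 36.3 CPM in piece 01 and 0.488 to 0.593 CPM in the other KO + NM1 pieces. S100a8, S100a9, Csf3r, Ngp, Camp, Retnlg and Ly6g were also highest in piece 01 of this tumor. S100a9, for example, had 22.6 CPM there beside 1.19 to 3.76 CPM, while Ly6g had at most 2 reads. Ltf and Elane were lowest there. The sum of the list was lowest in piece 01 too, at 244 CPM beside 608 to 1599 CPM. Ltf made up most of that sum, with 147 CPM in piece 01 and 598 to 1591 CPM in the others. The part of these cells in the level of Mmp25 was not tested.

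Mmp16 had 0.348 to 1.93 CPM in KO and 1.09 to 1.57 CPM in KO + NM1 pieces and was not called (log2 fold change -0.15, adjusted p = 0.832). Mmp24, known from neurons, had 2, 8 and 6 reads in KO pieces and none in KO + NM1 pieces. Against the floor of 3 counts over the group its level was at least 5.78-fold higher in KO, and it was called higher when every gene with at least 1 count was fitted (adjusted p = 0.0364). Mmp24 shares 637 exon bases with BC029722 on the opposite strand, which had 24.4 to 44.6 CPM.

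Of the remaining MMPs, 3 were lower in KO pieces. Mmp23, a small MMP with a transmembrane anchor at its start, had 4.93, 4.41 and 10.2 CPM in KO pieces and 41.4, 16.0, 11.3 and 17.4 CPM in KO + NM1 pieces. KO piece 03 and KO + NM1 piece 03 lay close together, and piece 01 lay well above the rest. edgeR gave a log2 fold change of -1.72 (SE 0.52, adjusted p = 0.0341), and it was -2.31 without KO piece 03 and -1.31 without KO + NM1 piece 01. The adjusted p was 0.0970 without KO piece 01, 0.0892 without KO piece 02, 0.0502 without KO + NM1 piece 02 and 0.0534 without KO + NM1 piece 04.

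Mmp28, a secreted MMP known from skin, had 7.43, 7.58 and 7.03 CPM in KO pieces and 7.99, 29.4, 28.0 and 23.7 CPM in KO + NM1 pieces. KO + NM1 piece 01 lay just above the KO pieces. This gave a log2 fold change of -1.60 (SE 0.42, adjusted p = 0.0208), and -2.01 without KO + NM1 piece 01. The adjusted p was 0.0585, 0.0524 and 0.0606 without KO piece 01, 02 or 03 and 0.0527 without KO + NM1 piece 02. Exons of Mmp28 share 466 bases with 1700020L24Rik on the opposite strand, which had 1.39 to 1.63 CPM in KO and 2.30 to 9.63 CPM in KO + NM1 pieces.

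Mmp27, a little studied member of the chromosome 9 cluster, had 0.600, 0.834 and 1.22 CPM in KO pieces and 1.71, 4.23, 2.87 and 7.32 CPM in KO + NM1 pieces. The groups came close at KO piece 03 and KO + NM1 piece 01. The log2 fold change was -2.18 (SE 0.54, adjusted p = 0.0174), with an adjusted p of 0.0598 without KO piece 01 and 0.0529 without KO piece 02. Mmp19 had 10.0 to 16.7 CPM in KO and 8.46 to 39.8 CPM in KO + NM1 pieces and was not called (log2 fold change -1.198, adjusted p = 0.0919). Without KO + NM1 piece 01 its log2 fold change was -1.63 with an adjusted p of 0.000795, and it shares 789 exon bases with Tmem198b on the opposite strand, which had 27.5 to 36.0 CPM in KO and 13.9 to 21.01 CPM in KO + NM1 pieces.

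Mmp20, the enamel protease, had at most 1 read in any piece. Mmp21 had no reads in KO pieces and 10, 2, 0 and 3 in KO + NM1 pieces. Against the floor of 3 counts over the KO group it was at least 4.61-fold higher in KO + NM1 pieces. When every gene with at least 1 count was fitted, Mmp21 was not called (adjusted p = 0.0793).

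Among the ADAMTS genes 4 were higher and 5 lower in KO. Among the procollagen N-proteinases, which remove the amino-terminal propeptide of fibrillar procollagens, Adamts14 alone was called. Adamts14 (ENSMUSG00000059901; chromosome 10 from 61197112 to 61273438) had 93.6, 75.9 and 86.3 CPM in KO pieces and 13.97, 9.60, 6.62 and 12.1 CPM in KO + NM1 pieces. The groups were far apart and the pieces of each tumor were alike. edgeR gave a log2 fold change of 3.01 (SE 0.26, adjusted p = 0.000421).

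Adamts2, the main N-proteinase of collagen I in skin, had 47.0 to 86.9 CPM in KO and 34.3 to 165 CPM in KO + NM1 pieces. Its log2 fold change was -0.71 (SE 0.51, adjusted p = 0.296), and without KO + NM1 piece 01 it was -1.14 with an adjusted p of 0.0045. Adamts3 was low, at 0.313 to 0.627 and 0.163 to 0.699 CPM, and was not called (log2 fold change 0.54, adjusted p = 0.488).

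The proteoglycanases cut aggrecan, versican and related large proteoglycans, and the aggrecanases Adamts4 and Adamts5 moved in opposite directions. Adamts4 (ENSMUSG00000006403; chromosome 1 from 171250421 to 171260637) had 35.3, 22.3 and 30.9 CPM in KO pieces and 4.16, 7.08, 6.13 and 7.07 CPM in KO + NM1 pieces. This gave a log2 fold change of 2.27 (SE 0.26, adjusted p = 0.000912). All KO pieces lay above all KO + NM1 pieces.

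Adamts5 (ENSMUSG00000022894; chromosome 16 from 85856173 to 85901828), the main aggrecanase of mouse cartilage, had 14.4, 19.1 and 23.1 CPM in KO pieces and 49.5, 275, 195 and 287 CPM in KO + NM1 pieces. KO + NM1 piece 01 was the lowest of its tumor and lay above all KO pieces. The log2 fold change was -3.42 (SE 0.54, adjusted p = 0.00401). White adipocyte, endothelial and mural markers moved in the same direction. Of 10 mural and smooth muscle markers, 7 were lower and 1, Des, was higher in KO, with sums of 283 to 1741 and 1170 to 2094 CPM. Des had 115, 1515 and 1010 CPM in KO pieces 01 to 03 and 31.1 to 166 CPM in KO + NM1 pieces. It made up most of the sum in KO pieces 02 and 03. The part of these cells in the Adamts5 result was not tested.

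Adamts1 lies next to Adamts5 on chromosome 16, from 85793827 to 85803113, and was not called. It had 23.8, 32.2 and 30.0 CPM in KO pieces and 18.2, 52.5, 52.9 and 59.7 CPM in KO + NM1 pieces. KO + NM1 piece 01 lay below every KO piece and the others above. edgeR gave a log2 fold change of -0.68 (SE 0.39, adjusted p = 0.188), and without piece 01 it was -1.07 with an adjusted p of 0.000369.

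Adamts15 and Adamts8 are likewise neighbors, on chromosome 9 from 30899155 to 30922452 and from 30942562 to 30963838. Adamts15 had 11.4, 6.19 and 11.4 CPM in KO pieces and 9.15, 28.3, 31.9 and 56.7 CPM in KO + NM1 pieces, and piece 01 overlapped the KO pieces. Its log2 fold change of -1.70 (SE 0.56, adjusted p = 0.0456) was close to the threshold, and without KO + NM1 piece 01 it was -2.14 with an adjusted p of 0.00121. The adjusted p was 0.0879, 0.113 and 0.0847 without KO piece 01, 02 or 03, and 0.0776, 0.0820 and 0.0964 without KO + NM1 piece 02, 03 or 04. Adamts8, known as an inhibitor of vessel growth, had 1.53 to 2.48 CPM in KO and 1.51 to 2.67 CPM in KO + NM1 pieces (log2 fold change -0.07, adjusted p = 0.881).

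Adamts9 had 24.0 to 36.9 CPM in KO pieces and 13.4 to 30.3 CPM in KO + NM1 pieces, with piece 01 lowest (log2 fold change 0.23, adjusted p = 0.567, and -0.11 without piece 01). Adamts20, known from the white-spotting of belted mice, had 0.0667 to 1.25 and 0.346 to 3.50 CPM (log2 fold change -0.73, adjusted p = 0.597, and 0.31 without piece 01). Neither was called.

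Adamts7 and Adamts12 cut cartilage oligomeric matrix protein, a ligand of collagens that is also made in tendon and vessel walls. Adamts7 (ENSMUSG00000032363; chromosome 9 from 90163069 to 90208071) had 71.4, 55.5 and 59.7 CPM in KO pieces and 9.23, 18.8, 9.68 and 18.4 CPM in KO + NM1 pieces. The groups did not overlap, and the log2 fold change was 2.15 (SE 0.31, adjusted p = 0.00167). Adamts12 had 5.56 to 12.4 CPM in KO and 1.68 to 10.2 CPM in KO + NM1 pieces and was not called (log2 fold change 0.44, adjusted p = 0.550, and -0.00438 without KO + NM1 piece 01).

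Adamts6 and Adamts10, a closely related pair tied to fibrillin microfibrils, moved in opposite directions. Adamts10 (chromosome 17) had 29.9, 28.6 and 33.9 CPM in KO pieces and 124, 79.5, 66.0 and 84.9 CPM in KO + NM1 pieces, and piece 01 was the highest of its tumor here. This gave a log2 fold change of -1.52 (SE 0.22, adjusted p = 0.00215). Adamts6 (chromosome 13) had 3.87, 2.16 and 4.39 CPM in KO pieces and 1.90, 0.244, 0.296 and 0.493 CPM in KO + NM1 pieces. KO + NM1 piece 01 lay just under KO piece 02.

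The log2 fold change of Adamts6 was 2.22 (SE 0.75, adjusted p = 0.0426), and it was 3.18 without KO + NM1 piece 01. The adjusted p was 0.121, 0.0683 and 0.135 without KO piece 01, 02 or 03, and 0.0875, 0.0906 and 0.101 without KO + NM1 piece 02, 03 or 04.

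The last group holds less studied enzymes. Adamts18, linked to eye and lung development, had 0.0667, 0.243 and 0.0330 CPM in KO pieces and 1.204, 3.05, 1.19 and 8.47 CPM in KO + NM1 pieces. KO + NM1 piece 04 was the highest, and the log2 fold change was -4.88 (SE 1.00, adjusted p = 0.00915). Without that piece it was -3.97, and without KO piece 02 it was -6.10.

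Adamts17, a gene of short stature and eye disease, had 0.467, 0.973 and 0.958 CPM in KO pieces and 1.97, 2.12, 2.08 and 2.06 CPM in KO + NM1 pieces. KO + NM1 pieces were almost equal. The log2 fold change was -1.36 (SE 0.34, adjusted p = 0.0157). Adamts16 (0.100 to 1.06 and 0.0729 to 1.19 CPM, log2 fold change -0.25, adjusted p = 0.859) was not called.

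Adamts19 was not called either, at 0.0333 to 0.528 CPM in KO and 0.109 to 3.41 CPM in KO + NM1 pieces (log2 fold change -2.54, adjusted p = 0.143). Without KO + NM1 piece 01 its log2 fold change was -3.05 with an adjusted p of 0.0306. Adamts13, the plasma protease of von Willebrand factor, did not pass the filter. It had 2, 3 and 0 reads in KO pieces and 162, 0, 3 and 1 reads in KO + NM1 pieces, so that all but 4 reads of its tumor came from piece 01.

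Levels per length show how the makeup of each family differed. CPM per kilobase of exon (RPKM) were summed over a family in each piece, and the share of each member was taken within that sum. The summed level of the MMP genes was 247 ± 52.0 RPKM (SD, n = 3) in KO and 238 ± 106 RPKM (SD, n = 4) in KO + NM1 pieces. That of the ADAMTS genes was 56.1 ± 6.97 RPKM and 63.5 ± 20.4 RPKM, and that of the TIMP genes was 256 ± 32.9 RPKM and 154 ± 61.9 RPKM. For the MMP and ADAMTS genes these sums differed by less than the SD of the KO + NM1 pieces.

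Within the TIMP sum, Timp2 took 74.1% ± 2.07 in KO and 85.6% ± 2.75 in KO + NM1 pieces. Timp1 took 23.7% ± 1.68 and 3.46% ± 1.00, and Timp4 took 0.00464% ± 0.0025 and 5.50% ± 2.39. By mean RPKM Timp1 ranked second of 4 in KO and last in KO + NM1 pieces, although in KO + NM1 piece 01 it lay above Timp3 and Timp4.

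Within the MMP sum, Mmp2 and Mmp14 held the top ranks by mean RPKM in both tumors, although Mmp9 lay above Mmp14 in KO piece 01 and Mmp14 above Mmp2 in KO + NM1 piece 01. Mmp2 took 39.7% ± 6.61 and 38.1% ± 12.5, and Mmp14 took 17.8% ± 1.41 and 18.0% ± 2.91. The difference lay below them, since Mmp9 took 15.7% ± 5.46 and 3.19% ± 3.01 and went from rank 3 to rank 8. Mmp13 took 5.39% ± 5.07 and 0.0736% ± 0.0358, from rank 5 to rank 15, while Mmp15 went from rank 9 to rank 4.

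Within the ADAMTS sum the leading gene itself differed. Adamts14 took 29.3% ± 1.24 in KO and 3.70% ± 2.47 in KO + NM1 pieces, from rank 1 to rank 7. Adamts5 took 3.16% ± 0.840 and 27.2% ± 9.89, from rank 8 to rank 1. In KO + NM1 piece 01 Adamts5 took 12.6%, and in that piece Adamts10 took the largest share.

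**Figure D4:**
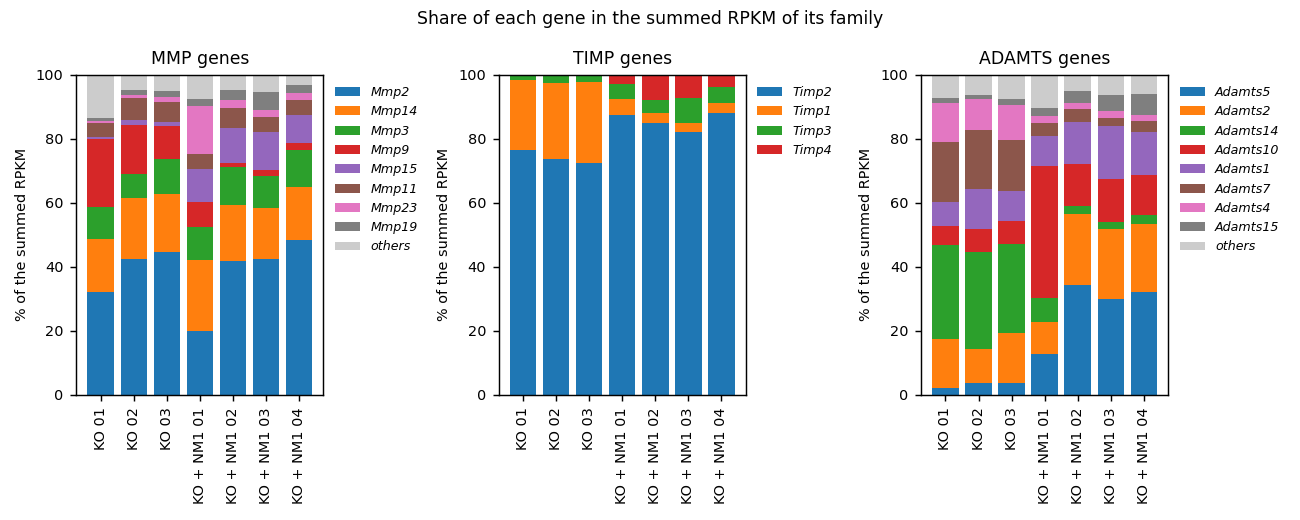
Stacked bars of the share of each gene in the summed RPKM of its family, in percent, for each tumor piece, with the 8 highest MMP and ADAMTS genes and all 4 TIMP genes drawn and the rest gray. Adamts14 and Timp1 take wider bands in the 3 KO pieces, and Adamts5, Mmp15 and Timp4 widen in the 4 KO + NM1 pieces.

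The summed RPKM of MMP genes divided by that of TIMP genes was 0.978, 0.817 and 1.08 in KO pieces and 1.40, 1.69, 1.41 and 1.57 in KO + NM1 pieces, or 0.959 ± 0.134 (SD, n = 3) and 1.52 ± 0.136 (SD, n = 4). The groups did not overlap. This ratio of transcripts says nothing of how much protease is active, and Timp2 set most of its denominator.

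Several members are neighbors in the genome. On chromosome 9, 9 MMP genes lie within 427.1 kb, from 7272514 to 7699585, in the order Mmp13, Mmp12, Mmp1b, Mmp3, Mmp10, Mmp8, Mmp27, Mmp20 and Mmp7. At opposite sides of Mmp3, 173.3 kb from the start of Mmp13, Mmp13 was called higher and Mmp27 lower in KO, Mmp3 and Mmp12 were not called, and the other 5 did not pass the filter. Mmp13 and Mmp27 thus moved in opposite directions.

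**Figure D5:**
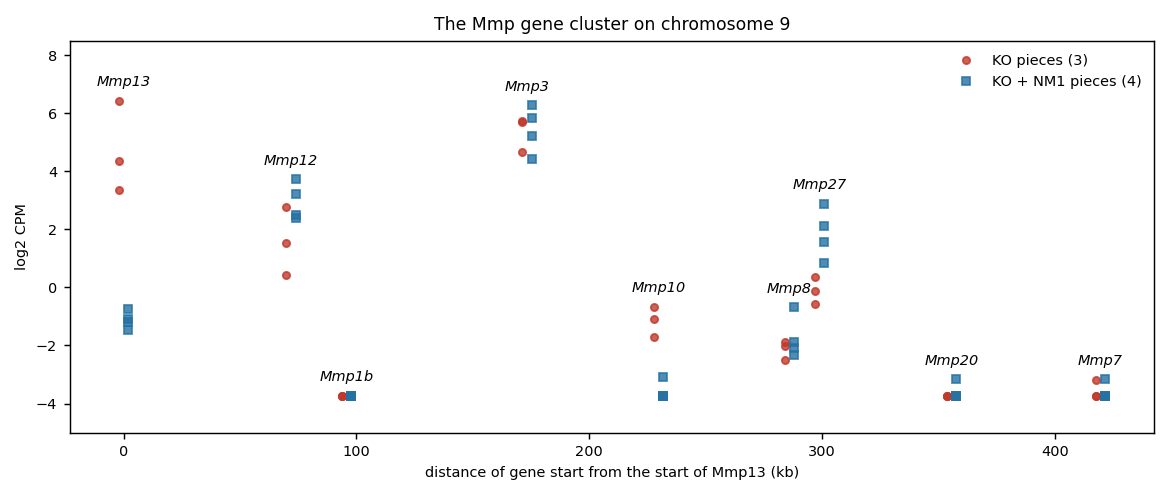
Level in log2 CPM of the 9 genes of the chromosome 9 cluster against the distance of each gene start from that of Mmp13, in kb, with circles for the 3 KO pieces and squares for the 4 KO + NM1 pieces, set slightly apart. Mmp13 separates widely with KO above, Mmp27 separates with KO + NM1 above, and Mmp3 overlaps.

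The cluster also shares promoter letters. Promoter windows of RefSeq on GRCm38.p6, from 250 bases before to 50 bases after a gene start, were found for 31 of the 45 members, with 34 windows. None was found for Mmp2, Mmp9, Mmp16, Mmp17, Mmp19, Adamts4, Adamts5, Adamts6, Adamts7, Adamts8, Adamts10, Adamts15, Adamts16 or Adamts19. TGANTCA, with N for any base, covers the AP-1 core letters TGACTCA and TGAGTCA and also TGAATCA and TGATTCA. As a pattern it reads the same on both strands. It was in 7 of the 34 windows (20.59%) and in 7.81% of all 32851 windows. TATAAA, searched on both strands, was in 29.41% of them and in 13.62% of all windows. The pair was in 7 and 507 windows. All 7 windows with TGANTCA belonged to genes of the chromosome 9 cluster, namely Mmp1b, Mmp3, Mmp7, Mmp10, Mmp12, Mmp13 and Mmp20, and those of Mmp8 and Mmp27 did not hold it. The match of Mmp20 was TGAATCA. These are matches of letters in genes chosen by name. Every gene of the cluster had a window, whereas members without one, such as Mmp9 and Adamts4, could not be searched.

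The 110 bases before the RefSeq start are shown for the most increased member of the cluster, for a neighbor with few reads and one that was not called, and for the member that was lower in KO. Capitals mark TGANTCA and TATAAA. They lie on the plus strand of chr9:7272404-7272513 for Mmp13, chr9:7502232-7502341 for Mmp10, chr9:7445712-7445821 for Mmp3 and chr9:7571286-7571395 for Mmp27.
Mmp13: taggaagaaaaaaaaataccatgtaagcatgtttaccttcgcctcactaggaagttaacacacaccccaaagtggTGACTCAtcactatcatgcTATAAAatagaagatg
Mmp10: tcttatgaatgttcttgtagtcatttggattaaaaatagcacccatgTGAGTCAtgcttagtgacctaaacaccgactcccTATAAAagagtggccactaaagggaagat
Mmp3: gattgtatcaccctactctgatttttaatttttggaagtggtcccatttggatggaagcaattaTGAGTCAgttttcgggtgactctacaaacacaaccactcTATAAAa
Mmp27: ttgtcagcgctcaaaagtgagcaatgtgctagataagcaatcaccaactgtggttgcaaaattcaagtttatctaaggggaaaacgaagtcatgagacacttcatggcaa

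The TGANTCA match began 35 bases before the start in Mmp13, 63 in Mmp10 and 46 in Mmp3, with TATAAA after it in each. Mmp3, which carries both sets of letters as well, was not called, with 25.0 to 53.0 CPM in KO and 21.5 to 77.6 CPM in KO + NM1 pieces.

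Genes that work with these families were read from lists of related proteins, with 8 of the listed genes called higher and 19 lower in KO. The lists held 7, 18, 22 and 10 tested genes, in the order given below. Of all genes tested, 17.1% were called higher and 20.3% lower. Of 7 ADAMTS-like proteins, which lack the protease domain, none was called higher and 3 lower. Papln had 0.133 to 0.765 CPM in KO pieces and 19.7 to 114 CPM in KO + NM1 pieces (log2 fold change -7.33, adjusted p = 0.0012). Thsd4, a fibrillin-binding protein, had a log2 fold change of -6.91 (adjusted p = 0.000682). Without KO piece 02 the log2 fold changes were -8.39 and -7.57.

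Of 18 tested genes for activation, inhibition and clearance of proteases, 2 were higher and 6 lower in KO. Cd44, a surface receptor that can hold Mmp9, had a log2 fold change of 2.11 (adjusted p = 0.00501). The largest falls among those with at least 5 CPM on average were in the serine protease Prss8 (log2 fold change -3.996, adjusted p = 0.0224) and the proprotein convertase Pcsk6 (-3.62, adjusted p = 0.00494). The adjusted p of Prss8 was 0.0675 without KO piece 01 and 0.0557 without KO piece 03, and its log2 fold change was -6.18 without KO piece 02.

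Reck, a membrane-anchored inhibitor of MMPs, was lower in KO, with 5.50 to 7.17 CPM in KO pieces, 14.2 to 48.7 CPM in KO + NM1 pieces and a log2 fold change of -2.22 (SE 0.39, adjusted p = 0.00471). Furin, which cleaves the precursors of membrane-type MMPs, had a log2 fold change of -0.37 (adjusted p = 0.166). Bsg, also called EMMPRIN for its induction of MMPs, had one of 0.36 (adjusted p = 0.318). Neither was called.

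Of 22 tested matrix substrates, 4 were higher and 8 lower. Fbn2, an embryonic fibrillin, had 10.4 to 13.4 CPM in KO and 0.346 to 1.35 CPM in KO + NM1 pieces (log2 fold change 3.68, adjusted p = 0.00103), and Tnc had a log2 fold change of 2.20 (adjusted p = 0.000979). Ncan, a proteoglycan of the nervous system, had no reads in KO pieces and 3.28 to 29.3 CPM in KO + NM1 pieces and was called lower (adjusted p = 0.00588). Decorin, encoded by Dcn, had 175 to 264 and 501 to 2344 CPM (log2 fold change -2.72, adjusted p = 0.00544). Aggrecan, the substrate for which the aggrecanases are named, was near absent, with Acan at no more than 0.132 CPM, whereas versican, encoded by Vcan, had 34.2 to 59.5 CPM in KO and 2.99 to 20.7 CPM in KO + NM1 pieces (log2 fold change 1.89, adjusted p = 0.0279). The call of Vcan was lost without KO piece 01, 02 or 03 (adjusted p = 0.109, 0.0540 and 0.0835) and without KO + NM1 piece 02 or 03 (adjusted p = 0.0638 and 0.0666).

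Of 10 tested ADAM genes, the membrane-bound relatives of ADAMTS, 2 were higher and 2 lower. Adam22 and Adam9 had log2 fold changes of 1.49 (adjusted p = 0.0017) and 1.22 (adjusted p = 0.000697). Adam23 and Adam33 had log2 fold changes of -2.53 each (adjusted p = 0.00267 and 0.000711).

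Further cell types differed between the tumors beside all of these results. All 10 skeletal muscle markers were called higher in KO, with sums of 2657 to 21621 CPM in KO and 9.93 to 27.7 CPM in KO + NM1 pieces, where Ckm and Myh4 had at most 3 reads in each. Of 10 Schwann cell markers, 7 were lower and none higher, with sums of 129 to 137 and 231 to 602 CPM. Of the fibroblast markers, 1 was higher and 4 were lower, and of 6 tested keratinocyte markers 1, Lor, was higher. KO piece 02 carried most of the keratinocyte signal in KO, with a sum of 1264 CPM beside 28.8 and 8.45 CPM, and 165 CPM of Lor beside 1.53 and 0.991 CPM. The neutrophil list summed to 27.0 to 33.3 CPM in KO pieces, mostly from Csf3r, and to 244 to 1599 CPM in KO + NM1 pieces, mostly from Ltf, which the mammary epithelium list also holds. How far the cell makeup of the pieces enters the levels of the MMP, TIMP and ADAMTS genes was not tested.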

How the data were processed

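RNA-seq libraries of tumor pieces were made with the NEBNext Ultra II kit. The authors trimmed reads with Trimmomatic 0.36, aligned them to GRCm38 (mm10) with HISAT2 2.0.4, sorted them with SAMtools 0.1.19 and counted them with HTSeq-count, and deposited raw counts per Ensembl gene. The annotation release and strand setting are not given in the sources used here. Symbols came from GENCODE M21 (46091 of 46603 genes).

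Counts were filtered with filterByExpr (minimum count 10), TMM-normalized and tested with edgeR 4.0.16 (quasi-likelihood, R 4.3.3), KO minus KO + NM1 and no covariates, with Benjamini-Hochberg adjustment over all genes tested. Alternatives used DESeq2 1.42.0, limma 3.58.1, other scalings, filters and thresholds, the piece number as a block, and each library left out. RPKM used union exon length. Heat map values are log2 CPM with a prior count of 2. Steps were tested on counts simulated at the levels, depths and spread of these data. There, 3.09% of the genes changed 2-fold and 50% of those changed 4-fold were called. Most genes given a 2-fold change there were thus not called. Of the calls made there, 8.62% fell on unchanged genes. The share of changed genes was not among the matched properties. Whether these percentages hold for the measured counts was not tested. Floors and intervals cover counting error only. No library repeated another by a chi-square test of counts.

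Named are every member, with values by piece for called members, all TIMPs, Mmp2, Mmp8, Mmp9, Mmp13, Mmp14, Adamts1, Adamts4 and Adamts5, and of related lists Reck, Bsg, Furin and the 2 largest rises and falls among called genes with a mean of at least 5 CPM. Acan, Vcan and single markers were named after their values were seen. Members and lists were chosen with earlier results of these data known. A few results that touch these genes are not reported here.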

Additional observations from a re-analysis of the deposited data

Results flagged for a closer look

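In 37 tested members the highest or lowest of the 4 KO + NM1 pieces was compared with the rest by Dixon's ratio, the gap to the nearest piece over the whole range of log2 CPM. The ratio passed the 95% critical value for 4 samples in 4 members, where chance at 1 in 20 gives 1.85, and piece 01 was the distant piece in each. Mmp25 was high there, with 17.2 CPM beside 0.288 to 0.325 CPM in the other pieces (ratio 0.974). Adamts1 was low, with 18.2 CPM beside 52.5 to 59.7 CPM (ratio 0.891). Adamts9 was low, with 13.4 CPM beside 27.1 to 30.3 CPM (ratio 0.861). Mmp28 was low, with 7.99 CPM beside 23.7 to 29.4 CPM (ratio 0.835).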

How the results depend on the processing

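Of the 18 called members, 12 were called under every alternative that gave a value (Adamts4, Adamts5, Adamts7, Adamts10, Adamts14, Adamts18, Mmp9, Mmp13, Mmp15, Mmp17, Timp1 and Timp4), and none of the 18 changed sign. With at least 10 counts in every library, Mmp13, Timp4 and Adamts18 were not tested. The count of 7 members higher ranged from 5 to 8 over the alternatives and from 6 to 8 with a library left out. The count of 11 lower was 6 with glmTreat and from 7 (without KO piece 02) to 15 (without KO + NM1 piece 01) with a library left out. Of the related genes, 8 higher became 5 with glmTreat and 11 with voom, and ranged from 7 to 9 with a library left out. The 19 related genes called lower became 13 with at least 10 counts in every library and 24 with voom. With a library left out they ranged from 15 (without KO piece 03) to 25 (without KO + NM1 piece 01). Same-numbered pieces shared only a number (correlation of deviations 0.0802, 0.102 and -0.0165). With the replicate block 7 members were lower, Adamts8, Mmp2 and Mmp3 turned to 0.0569, 0.65 and 0.21, and the calls of Adamts6 (adjusted p = 0.0633), Adamts15 (0.196), Adamts17 (0.0714), Mmp23 (0.121) and Mmp28 (0.103) were lost. Of the related genes named, the block lost Vcan (0.0659), and glmTreat lost Adam9 (0.0789), Prss8 (0.0526) and Vcan (0.124). With glmTreat the calls lost were those of Adamts6 (0.146), Adamts15 (0.193), Adamts17 (0.189), Mmp23 (0.159), Mmp27 (0.0747) and Mmp28 (0.135). With library size alone Adamts15 (0.0634) and Mmp23 (0.0622) were lost, and with every gene of at least 1 count Adamts6 (0.0690) was lost while Mmp10 (0.0112) and Mmp24 (0.0364) were called higher. With voom, Adamts2, Mmp12, Mmp19 and Mmp25 gained a call, and with the DESeq2 Wald test Mmp19. Relative to TMM the median of all genes moved by 0.17 with library size alone, by -0.16 with the upper quartile, by 0.12 with voom and by -0.11 with every gene of at least 1 count. Log2 fold changes that turned sign were those of uncalled members. Mmp14 turned to -0.0209 with DESeq2 size factors, -0.0834 with the upper quartile, -0.0154 with every gene of at least 1 count, -0.0209 with the DESeq2 Wald test and -0.0636 with voom. With library size alone Adamts16, Adamts8, Mmp16, Mmp2 and Mmp3 turned to 0.0124, 0.10, 0.00731, 0.16 and 0.0178, and with voom Adamts16, Adamts20, Adamts8, Adamts9 and Mmp11 turned to 0.0175, 0.33, 0.17, -0.11 and -0.00768. With a library left out, values ranged from -0.0044 to 0.71 in Adamts12, -1.91 to 0.10 in Adamts16, -1.33 to 0.31 in Adamts20, -0.35 to 0.048 in Adamts8, -0.11 to 0.32 in Adamts9, -0.20 to 0.39 in Mmp11, -0.21 to 0.30 in Mmp14, -0.77 to 0.17 in Mmp16, -0.49 to 0.38 in Mmp2 and -0.53 to 0.14 in Mmp3. The causes were not tested. At these depths 8 members did not pass the filter on low counts.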
